A study of Rattus norvegicus with 16 samples.

Results

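The genes encoding the protein subunits of the mitochondrial ribosome were taken as every symbol of the count files that begins with Mrpl or Mrps followed by a digit. This found 68 of 17055 gene symbols, 41 of them named for the large subunit (Mrpl) and 27 for the small subunit (Mrps). They were followed in liver RNA of male Sprague-Dawley rats aged 10 weeks, 8 h after the abdomen was opened. In the sepsis groups the cecum was ligated and punctured (CLP), a model of polymicrobial abdominal sepsis, and in the controls it was brought out and returned. Both were studied under general anesthesia with isoflurane or with Propofol, which gave 4 groups of 12 rats. The Isoflurane-Sepsis group (libraries 1 to 4) and the Isoflurane-Control group (libraries 5 to 8) were induced and maintained with isoflurane. The Propofol-Sepsis group (libraries 9 to 12) and the Propofol-Control group (libraries 13 to 16) were induced with ketamine and xylazine before Propofol, so that the anesthetic cannot be told apart from the induction drugs. The labels give no sequencing batch, but the deposited tables of the isoflurane and of the Propofol libraries are named with different prefixes, and a batch that followed the anesthetic could not be told apart from it. Each library held RNA of 3 pooled rats, and the p-values below measure the spread between 4 such pools per group.

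Mitochondria keep their own ribosome, which makes only the hydrophobic core subunits of the oxidative phosphorylation complexes that mitochondrial DNA encodes. Its ribosomal RNAs come from mitochondrial DNA, whereas all of its proteins are encoded in the nucleus, made in the cytosol and imported. Some of these proteins descend from bacterial ribosomal proteins and others have no bacterial counterpart, and in liver they supply a tissue rich in mitochondria.

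Of the 68 genes, 66 had reads in all 16 libraries and passed the limit on low counts. The other 2, Mrpl30 and Mrpl36, were listed at 0 in every library and carry no value below. Per library 14199422 to 49937173 reads lay on genes, and 19918 to 78112 of them on the members. Reads outside genes made up 21.61% to 25.39% of a library, with the highest shares in libraries 3 (25.39%) and 4 (24.45%) of the Isoflurane-Sepsis group. The liver markers (Alb, Ttr, Apoa1, Serpina1, Cps1 and Tat) were all present in every group. No library pair of a group agreed within sampling noise (chi-square per degree of freedom of 3.351 or more).

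Under isoflurane, sepsis went with lower mRNA of most of the mitochondrial ribosome. Of the 66 members tested, 42 fell, 0 rose and 24 were not called by the quasi-likelihood test of edgeR at an adjusted p below 0.05. An unadjusted p below 0.05 was reached by 47 (71.2%, against 5910 of the 10361 genes tested in either direction). DESeq2 called 43 lower (65.2%) and 0 higher, where it called 24.8% of all genes lower and 27.3% higher. The edgeR share of 63.6% compares with 24.4% of all genes tested that were called lower and 25.7% that were called higher. The median log2 fold change was -0.36 over the members and 0.006 over all genes. In 39 of 66 members (59.1%) every sepsis library lay below every control library, against 24.4% of all genes. In bulk tissue, fewer cells of a type and less RNA per cell cannot be told apart.

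**Figure D1:**
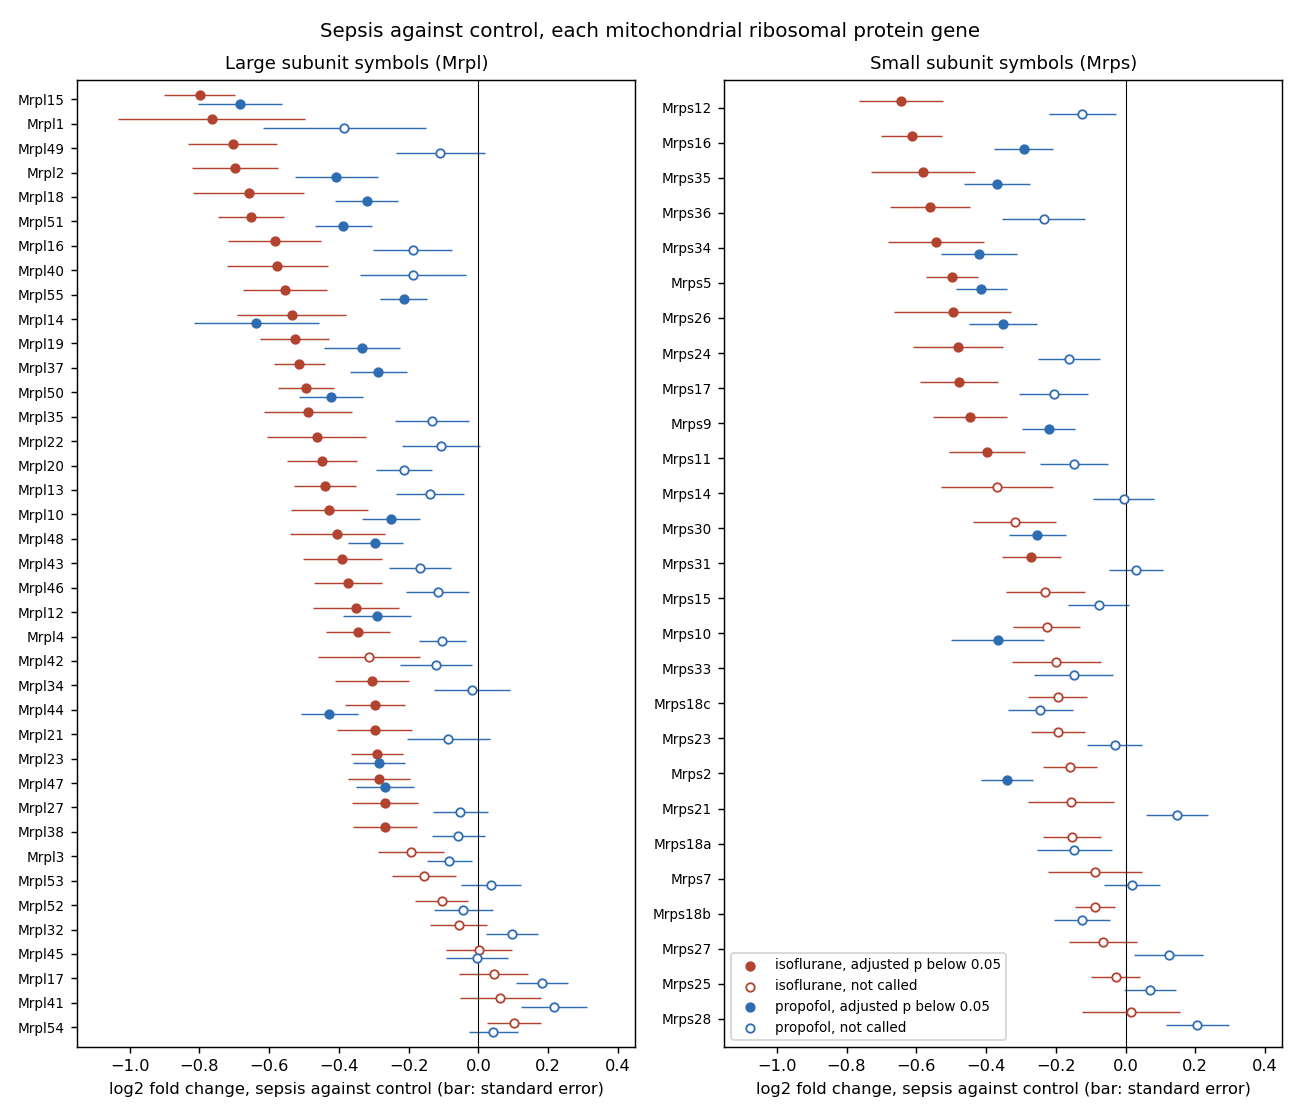
Log2 fold change of sepsis against control for each of the 66 members tested (x axis), large subunit symbols on the left and small on the right, ordered by the change under isoflurane. Points are edgeR estimates and bars standard errors, red for isoflurane and blue for Propofol, and filled points passed an adjusted p below 0.05. The changes run from -0.80 (Mrpl15) to 0.10 (Mrpl54) under isoflurane and from -0.68 (Mrpl15) to 0.22 (Mrpl41) under Propofol.

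Mrpl15, the counterpart of bacterial L15 in the large subunit, moved most. It stood at 14.4, 15.4, 16.01 and 12.2 CPM (reads scaled to the reads on genes of each library, after TMM scaling) in the Isoflurane-Sepsis libraries and at 23.7, 24.6, 26.6 and 26.2 CPM in the controls. The highest sepsis library was well below the lowest control, and the log2 fold change was -0.80 ± 0.10 (SE) with an adjusted p of 0.000388 (edgeR). Mrpl37, a protein of the large subunit without a bacterial counterpart, was at 29.5, 29.4, 24.97 and 29.4 CPM with sepsis and at 42.6, 40.9, 39.0 and 39.4 CPM in controls. All 4 sepsis libraries again lay below all 4 controls, with a log2 fold change of -0.51 ± 0.072 and an adjusted p of 0.000641 (edgeR). Mrpl51, also without a bacterial counterpart, had 22.3, 21.3, 16.5 and 21.6 CPM with sepsis and 31.6, 32.3, 33.9 and 30.8 CPM in controls. Library 3 was the lowest of them, the ranges did not overlap, and the log2 fold change was -0.65 ± 0.095 with an adjusted p of 0.000755 (edgeR). Mrpl50, likewise particular to mitochondria, had 17.7, 17.3, 14.9 and 15.1 CPM against 24.4, 21.8, 22.8 and 22.7 CPM. Its groups were separate as well, at a log2 fold change of -0.49 ± 0.080 and an adjusted p of 0.00129 (edgeR).

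In the small subunit, the counterpart of bacterial S16, Mrps16, read 19.7, 18.8, 15.9 and 15.8 CPM in Isoflurane-Sepsis and 25.4, 27.2, 27.8 and 26.96 CPM in Isoflurane-Control. The groups did not overlap, and the log2 fold change was -0.61 ± 0.087 with an adjusted p of 0.000681 (edgeR). Mrps5, the counterpart of S5, which in bacteria lies where mRNA enters the ribosome, read 18.1, 18.7, 16.3 and 15.8 CPM against 25.02, 23.7, 24.4 and 24.3 CPM. Here the controls spanned little and all sepsis libraries were below them, at a log2 fold change of -0.50 ± 0.075 and an adjusted p of 0.000887 (edgeR). For both genes libraries 3 and 4 were the lowest.

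The other large subunit genes that fell under isoflurane ranged in log2 fold change from -0.77 to -0.27. Those with a bacterial counterpart were Mrpl1 (-0.77), Mrpl2 (-0.70), Mrpl18 (-0.66), Mrpl16 (-0.58), Mrpl14 (-0.54), Mrpl19 (-0.53), Mrpl35 (-0.49), Mrpl22 (-0.46), Mrpl20 (-0.45), Mrpl13 (-0.44), Mrpl10 (-0.43), Mrpl12 (-0.35), Mrpl4 (-0.35), Mrpl34 (-0.31), Mrpl21 (-0.30), Mrpl23 (-0.29), Mrpl47 (-0.28) and Mrpl27 (-0.27). Some of these calls were weak. Mrpl12, Mrpl27, Mrpl34 and Mrpl48 lost theirs in 9 of 17 alternatives and Mrpl1, Mrpl21 and Mrpl38 in 8, and Mrpl1 rested on only 9 to 52 reads per library. Those without a counterpart were Mrpl49 (-0.70), Mrpl40 (-0.58), Mrpl48 (-0.41), Mrpl43 (-0.39), Mrpl46 (-0.37), Mrpl44 (-0.30) and Mrpl38 (-0.27), and Mrpl55 (-0.56) was put in neither class. In the small subunit the other calls were Mrps12 (-0.64), Mrps35 (-0.58), Mrps36 (-0.56), Mrps34 (-0.54), Mrps26 (-0.50), Mrps24 (-0.48), Mrps17 (-0.48), Mrps9 (-0.45), Mrps11 (-0.40) and Mrps31 (-0.27). The highest values belonged to members that were not called, namely Mrpl54 (0.10), Mrpl41 (0.06) and Mrpl17 (0.04).

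The letter in a symbol does not always give the subunit. Mrps30 and Mrps18a are known to sit in the large subunit, and Mrps36 is known mainly as a component of the 2-oxoglutarate dehydrogenase complex. Mrps30 missed the threshold under isoflurane (log2 fold change -0.32, adjusted p of 0.0502 by edgeR), Mrps18a was at -0.15 (adjusted p of 0.152), and Mrps36 fell by 0.56 on the log2 scale (adjusted p of 0.00375).

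Under Propofol, sepsis went with a smaller fall of fewer members. Of the 66 members, 24 fell, 0 rose and 42 were not called (36.4% lower, where 21.7% of the 10348 genes tested were lower and 20.4% higher). Without library 14 the count was 12, or 18.2%, close to the 17.3% of all genes then called lower. Of the members, 29 had an unadjusted p below 0.05 (43.9%, below the 51.3% of all genes in either direction). DESeq2 called 23 lower (34.8%) and 0 higher, where it called 20.9% of all genes lower and 20.8% higher. The median log2 fold change was -0.16 over the members and -0.002 over all genes, and without library 10 it was -0.07 over the members. Every sepsis library lay below every control library in 24 of 66 members (36.4%), against 21.1% of all genes. Mrps28 alone had every sepsis library above every control (1.52% of members, against 21.1% of all genes). Its log2 fold change was 0.21 with an adjusted p of 0.0937 (edgeR), which is not a call.

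Mrpl15 was again the member with the lowest value. Its levels were 19.7, 13.4, 16.8 and 19.6 CPM in the Propofol-Sepsis libraries and 24.97, 28.4, 29.0 and 28.8 CPM in Propofol-Control. The groups were apart, although sepsis libraries 9 and 12 stood nearer to the controls, and the log2 fold change was -0.68 ± 0.12 with an adjusted p of 0.00171 (edgeR). Mrps5 read 22.03, 20.7, 19.99 and 22.5 CPM with sepsis and 25.5, 29.8, 29.7 and 28.1 CPM in controls. The ranges did not meet, at a log2 fold change of -0.41 ± 0.074 and an adjusted p of 0.00184 (edgeR).

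Mrpl44, which carries a fold of the RNase III family and lies near the exit of the peptide tunnel, had 12.3, 10.2, 11.4 and 12.4 CPM with sepsis and 14.9, 16.2, 15.5 and 15.7 CPM in Propofol-Control. It fell by 0.43 on the log2 scale (SE 0.081, adjusted p of 0.0025 by edgeR) with no overlap. Under isoflurane the same gene had 10.98, 10.3, 9.32 and 11.4 CPM with sepsis and 13.7, 13.3, 12.03 and 12.7 CPM in controls. There it changed by -0.30 ± 0.086, also without overlap.

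Mrps2, the counterpart of bacterial S2, was the clearest of the members called under Propofol and not under isoflurane. It had 50.8, 46.3, 54.03 and 56.95 CPM in Propofol-Sepsis and 63.9, 64.1, 71.5 and 62.9 CPM in Propofol-Control. All sepsis libraries were lower, at a log2 fold change of -0.34 ± 0.076 and an adjusted p of 0.00564 (edgeR). In isoflurane liver it had 39.4, 43.6, 34.5 and 40.7 CPM with sepsis and 43.1, 43.96, 42.5 and 46.98 CPM in controls. Those ranges overlapped, with a log2 fold change of -0.16 ± 0.079 and an adjusted p of 0.121, and the difference between the anesthetics for this gene had an adjusted p of 0.356 (edgeR interaction).

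Mrpl51 and Mrpl50 also passed at a stricter adjusted p of 0.01 under Propofol. At that threshold 6 members were lower (9.09%), below the 13.3% of all genes. Mrpl51 had 28.8, 22.2, 24.3 and 26.5 CPM with sepsis and 33.4, 32.8, 32.2 and 34.1 CPM in controls, a log2 fold change of -0.39. Mrpl50 had 19.9, 19.0, 21.1 and 24.7 CPM with sepsis and 29.7, 29.9, 27.04 and 26.8 CPM in controls, a log2 fold change of -0.42. For both the sepsis range ended below the control range. Mrpl37 was separate too, with 39.6, 31.2, 33.4 and 37.7 CPM against 41.3, 43.8, 42.5 and 44.8 CPM and a log2 fold change of -0.29 (adjusted p of 0.0183 by edgeR). Mrps16 likewise did not overlap, with 19.8, 17.7, 20.5 and 22.1 CPM against 25.2, 25.04, 22.2 and 25.4 CPM and a log2 fold change of -0.29 (adjusted p of 0.0208 by edgeR).

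The remaining calls under Propofol in the large subunit were Mrpl14 (-0.64), Mrpl2 (-0.41), Mrpl19 (-0.33), Mrpl18 (-0.32), Mrpl48 (-0.30), Mrpl12 (-0.29), Mrpl23 (-0.28), Mrpl47 (-0.27), Mrpl10 (-0.25) and Mrpl55 (-0.21). In the small subunit they were Mrps34 (-0.42), Mrps35 (-0.37), Mrps10 (-0.37), Mrps26 (-0.35), Mrps30 (-0.25) and Mrps9 (-0.22). Of 16 alternatives, Mrps10 lost its call in 11, Mrps9 in 10, Mrpl12 and Mrpl55 in 9, and Mrpl10 and Mrps30 in 8. The highest values under Propofol, none of them called, were those of Mrpl41 (0.22), Mrps28 (0.21) and Mrpl17 (0.18). Without library 10 the 2 large subunit genes Mrpl41 and Mrpl17 were called higher, at log2 fold changes of 0.29 and 0.24.

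**Figure D2:**
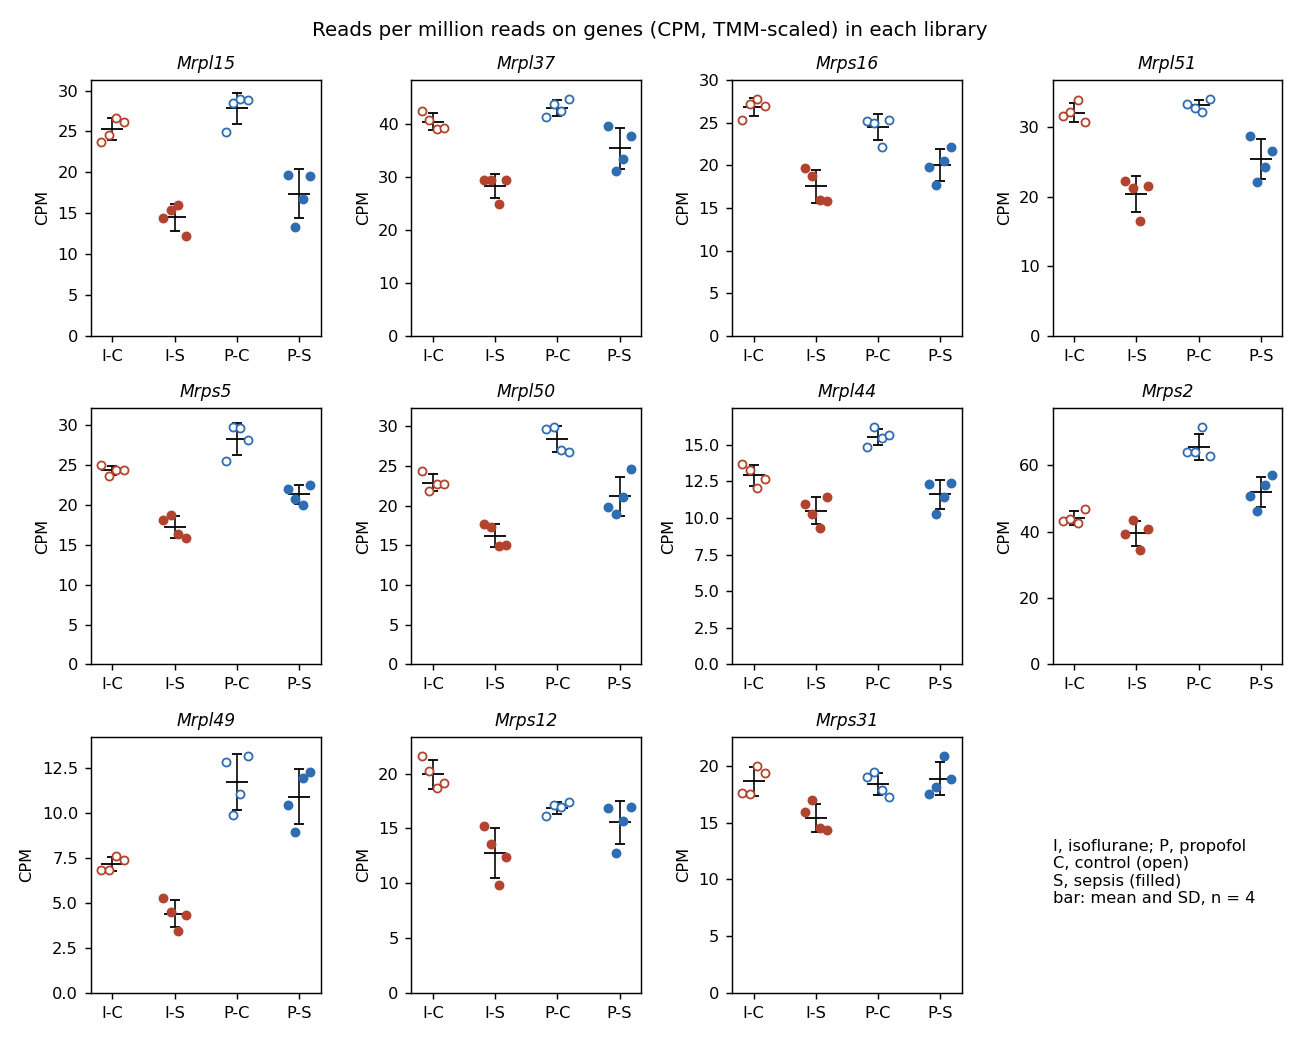
CPM of 11 members in each library (y axis, from 0), with controls open and sepsis filled, isoflurane red and Propofol blue, and the mean and SD of 4 libraries as black bars. Mrpl15 is lower with sepsis under both anesthetics, Mrps12, Mrpl49 and Mrps31 are separated from controls under isoflurane and overlap them under Propofol, and Mrps2 the reverse.

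The sepsis comparisons of the 2 anesthetics share no library. The 21 members called lower in both made up 50% of the 42 calls under isoflurane and 87.5% of the 24 under Propofol. Over the 10182 genes tested in both, the 1535 called lower in both made up 61.4% and 68.9% of the lower calls. The members were Mrpl2, Mrpl10, Mrpl12, Mrpl14, Mrpl15, Mrpl18, Mrpl19, Mrpl23, Mrpl37, Mrpl44, Mrpl47, Mrpl48, Mrpl50, Mrpl51, Mrpl55, Mrps5, Mrps9, Mrps16, Mrps26, Mrps34 and Mrps35. Called under Propofol alone were Mrps2, Mrps10 and Mrps30. Under isoflurane Mrps30 (-0.32, adjusted p of 0.0502) and Mrps10 (-0.23, adjusted p of 0.0775) were also below 0 by edgeR. Their interaction had adjusted p-values of 0.801 and 0.652 (edgeR). Of all 66 members, 54 (81.8%) were below 0 in both comparisons, against 38.9% of all genes. The log2 fold changes had a Pearson r of 0.72 across members and of 0.76 across all genes, which are not independent of each other since they come from the same libraries. In 58 of 66 (87.9%) the isoflurane value was the more negative, against 50.4% of all genes. The members share the same pools and are not separate observations. Without Isoflurane-Sepsis libraries 3 and 4 the median over the members was -0.21 under isoflurane, beside -0.16 under Propofol. The member means of libraries 1 and 2 (-0.19 and -0.24 from their controls) lay within the range of Propofol-Sepsis (-0.37 to -0.05).

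**Figure D3:**
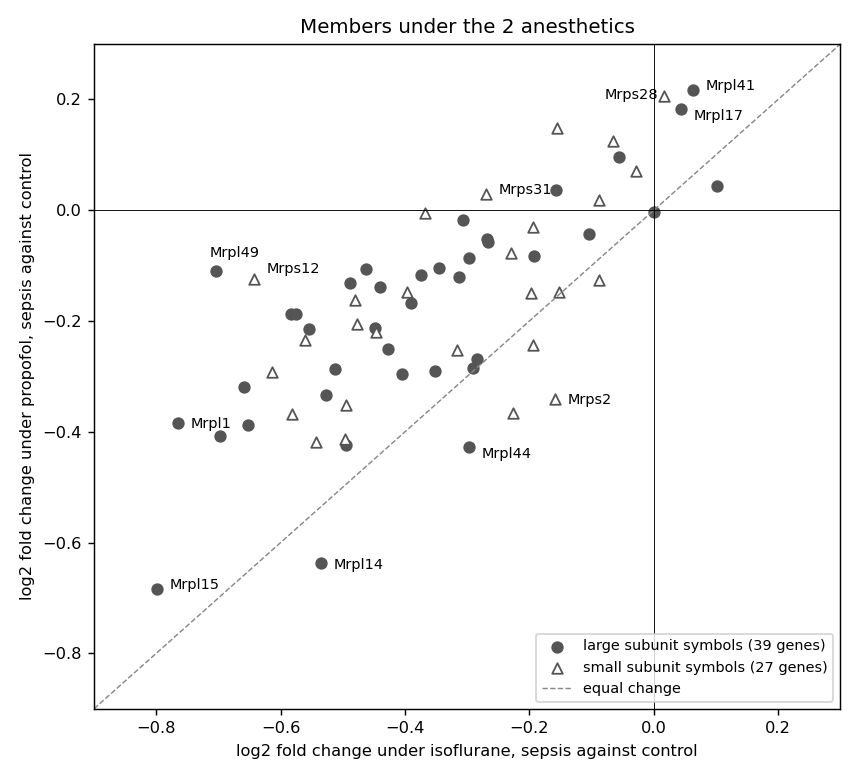
Log2 fold change of sepsis against control under isoflurane (x axis) and under Propofol (y axis), with 1 point for each of the 66 members, filled circles for the large subunit and open triangles for the small, and the dashed line for equal change. Points above the line, 58 of 66, were lower under isoflurane, and Mrpl14, Mrpl44 and Mrps2 are among those below it.

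Promoter windows of 4 members called lower under both anesthetics are shown, since these genes moved together. They are those with the smallest adjusted p (the larger of the 2 comparisons) among members with a promoter in the RefSeq table, which holds 250 bases before to 50 bases after the start in the rat assembly GRCr8. Each is printed 5′ to 3′ on the strand of the gene, in lower case, and capitals mark a motif. The windows are chr3:135274083-135274382 on the plus strand for Mrps5, chr4:159677738-159678037 on the plus strand for Mrpl51, chr5:68668038-68668337 on the minus strand for Mrpl50 and chr1:207116680-207116979 on the plus strand for Mrpl23.
Mrps5: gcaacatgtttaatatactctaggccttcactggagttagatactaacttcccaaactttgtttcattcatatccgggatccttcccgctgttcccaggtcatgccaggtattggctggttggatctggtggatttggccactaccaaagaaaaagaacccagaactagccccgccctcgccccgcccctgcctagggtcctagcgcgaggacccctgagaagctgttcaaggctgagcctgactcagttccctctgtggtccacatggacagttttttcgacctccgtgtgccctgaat
Mrpl51: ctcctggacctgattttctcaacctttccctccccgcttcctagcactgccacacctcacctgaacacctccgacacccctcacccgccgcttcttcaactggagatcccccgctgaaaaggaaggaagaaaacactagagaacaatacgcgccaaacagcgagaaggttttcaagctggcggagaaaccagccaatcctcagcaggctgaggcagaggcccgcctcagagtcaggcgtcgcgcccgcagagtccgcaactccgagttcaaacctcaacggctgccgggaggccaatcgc
Mrpl50: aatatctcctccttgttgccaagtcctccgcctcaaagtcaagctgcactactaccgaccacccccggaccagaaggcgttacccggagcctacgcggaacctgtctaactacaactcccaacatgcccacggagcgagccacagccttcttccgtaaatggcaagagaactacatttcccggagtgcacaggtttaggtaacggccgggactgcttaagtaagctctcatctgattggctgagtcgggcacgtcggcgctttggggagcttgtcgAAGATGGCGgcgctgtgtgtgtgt
Mrpl23: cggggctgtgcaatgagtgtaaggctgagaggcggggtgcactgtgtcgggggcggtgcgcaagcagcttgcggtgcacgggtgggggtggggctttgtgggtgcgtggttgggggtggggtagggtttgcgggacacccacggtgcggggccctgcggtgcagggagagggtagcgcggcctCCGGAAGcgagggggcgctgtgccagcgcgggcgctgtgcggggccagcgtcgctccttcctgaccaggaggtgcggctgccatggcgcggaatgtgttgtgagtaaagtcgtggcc
The motifs searched on both strands were GCGCATGC (the core bound by NRF1, a factor known for nuclear genes of mitochondria, whose matches on opposite strands overlap), CCGGAAG (ETS family) and AAGATGGCG (YY1). Mrpl50 holds the YY1 motif from base 26 to base 34 after the start, Mrpl23 the ETS motif from base -67 to -61, and the windows of Mrps5 and Mrpl51 hold none of the 3. Among the 54 members with a promoter, the ETS motif was in 18 (33.3%, against 9.63% of 27457 genes), the YY1 motif in 9 (16.7%, against 1.99%) and the NRF1 core in 5 (9.26%, against 2.77%). By the call under isoflurane, the ETS motif was in 7 of 29 that fell (24.1%) and in 9 of 23 that were not called (39.1%), the YY1 motif in 3 (10.3%) and 5 (21.7%), and the NRF1 core in 2 (6.9%) and 3 (13%). These shares are a description of the windows and were not tested.

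Whether the anesthetics differed in what sepsis did to a member was asked with an interaction term fitted to all 16 libraries, which is negative where the fall was deeper under isoflurane. Of the 66 members 0 were called lower and 0 higher by edgeR, where 1.06% and 1.66% of the 10621 genes tested were called. An unadjusted p below 0.05 was reached by 9 members (13.6%, below the 23.1% of all genes), and DESeq2 called 2 lower, Mrps12 and Mrpl49. The same 2 were called by edgeR without library 10, and 7 members without library 1 (Mrps12, Mrpl49, Mrpl55, Mrpl4, Mrps16, Mrpl27 and Mrps21). The share of all genes called with DESeq2 or with a library left out was not counted for the interaction. The median interaction was -0.20 over the members and -0.016 over all genes, with 59 of 66 members (89.4%) and 51.9% of all genes below 0.

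Mrpl49, a large subunit protein without a bacterial counterpart, had the lowest interaction, -0.60 ± 0.19 on the log2 scale with an adjusted p of 0.0812 (edgeR). It had 5.29, 4.51, 3.47 and 4.35 CPM in Isoflurane-Sepsis and 6.87, 6.83, 7.62 and 7.40 CPM in Isoflurane-Control. It had 10.5, 8.98, 11.97 and 12.3 CPM in Propofol-Sepsis and 12.9, 9.90, 11.1 and 13.2 CPM in Propofol-Control. The isoflurane groups were apart and the Propofol groups overlapped, and every isoflurane library was below every Propofol library. Mrpl49 overlaps Syvn1 in the reference annotation, and the same holds for 14 members with some other protein-coding gene, Mrpl37, Mrps2 and Mrps12 among them. Whether such reads were told apart by strand is not given in the sources used here.

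Mrps12, the counterpart of bacterial S12 at the decoding site, had an interaction of -0.53 ± 0.16 with an adjusted p of 0.0812 (edgeR). It had 15.2, 13.5, 9.84 and 12.4 CPM with sepsis and 21.6, 20.2, 18.7 and 19.1 CPM in controls under isoflurane. Under Propofol the values were 16.9, 12.7, 15.7 and 16.9 CPM with sepsis and 16.1, 17.1, 16.95 and 17.4 CPM in controls. Again only the isoflurane groups were separate.

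Mrps31, a small subunit protein without a bacterial counterpart, was the only member called in 1 sepsis comparison with the opposite sign in the other. Under isoflurane it had 15.9, 16.95, 14.6 and 14.3 CPM with sepsis and 17.6, 17.5, 20.02 and 19.4 CPM in controls, a log2 fold change of -0.27 ± 0.085 (adjusted p of 0.0265 by edgeR). Under Propofol it had 17.6, 18.1, 20.9 and 18.9 CPM with sepsis and 19.0, 19.5, 17.9 and 17.3 CPM in controls. The latter ranges overlapped almost wholly, at 0.03 ± 0.078, a sign that turned with library totals alone (-0.02) and without library 11. Its interaction was -0.31 with an adjusted p of 0.121 (edgeR).

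The fall was not equal in the libraries of a group. Averaged over the 66 members, log2 CPM minus the mean of the 4 controls was -0.19, -0.24, -0.53 and -0.51 in Isoflurane-Sepsis libraries 1 to 4, a mean of -0.36 ± 0.18 (SD, n = 4). In Propofol-Sepsis libraries 9 to 12 it was -0.15, -0.37, -0.11 and -0.05, a mean of -0.17 ± 0.14 (SD, n = 4). Control libraries stayed between -0.041 and 0.033, so all 8 sepsis libraries were below all controls of their anesthetic, with libraries 3, 4 and 10 lowest. Members below their control mean numbered 56, 57, 64 and 63 of 66 in libraries 1 to 4 and 52, 62, 47 and 38 of 66 in libraries 9 to 12. The median of all genes in the same libraries lay between -0.046 and 0.023.

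Within each sepsis group, the sum of neutrophil and monocyte markers moved with this order. The sums of Kupffer cell and macrophage markers and of lymphocyte markers did not. The summed level of 8 neutrophil and monocyte markers, of which Ly6c was at 0 in all groups, was 37.3, 75.2, 119 and 102 CPM in Isoflurane-Sepsis libraries 1 to 4, against 18.3 to 21.4 CPM in their controls. It was 46.8, 55.0, 40.0 and 37.4 CPM in libraries 9 to 12, against 19.4 to 26.9 CPM. Of the 7 markers tested, 5 rose under isoflurane (71.4%, against 25.7% of all genes) and 4 under Propofol (57.1%, against 20.4%). Libraries 3 and 4 had the highest marker levels of the isoflurane group and library 10 that of the Propofol group, and these are the libraries with the lowest member means. Libraries 3, 4 and 10 also had the highest shares of reads outside genes in their sepsis groups, at 25.39%, 24.45% and 23.26%. Kupffer cell and macrophage markers summed to 268 to 353 CPM with sepsis and 245 to 305 CPM in controls under isoflurane, and to 223 to 288 and 268 to 321 CPM under Propofol. These sums cover opposed changes, since Marco (log2 fold change 0.72), Cd68 (0.44), Cd163 (0.35) and C1qa (0.31) rose under isoflurane and Clec4f fell (-0.60), while under Propofol Marco rose (0.43) and Clec4f fell (-0.82). The 6 lymphocyte markers in the files summed to at most 2.6 CPM in any library. Hepatocyte markers, most of whose reads were from Alb, summed to 99200 to 113000 CPM against 120000 to 129000 CPM under isoflurane and to 81200 to 90600 against 86700 to 96000 CPM under Propofol. Of the 6, Alb (-0.25) and Apoa1 (-0.74) fell under isoflurane, and under Propofol Apoa1 fell (-0.46) and Tat rose (1.31). The part of cell makeup or of reads outside genes in the fall of the members was not tested. Without libraries 3 and 4, which left 2 sepsis pools, 30 members fell under isoflurane (45.5%, against 25.6% of all genes) and Mrpl17 rose (log2 fold change 0.18), and the median over the members was -0.21.

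**Figure D4:**
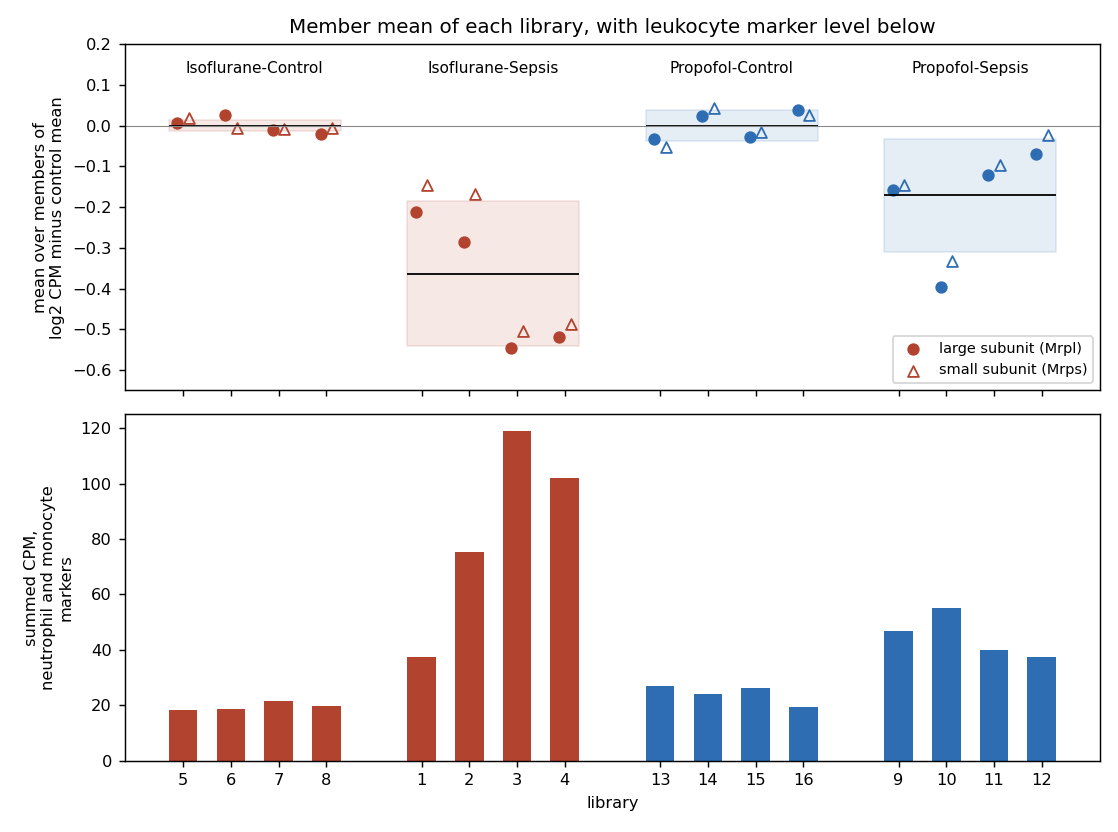
Upper panel, mean over members of log2 CPM minus the mean of the 4 control libraries of the same anesthetic, for large subunit genes (circles) and small subunit genes (triangles) in each library, with lines and bands for the group mean and SD over all members. Lower panel, summed CPM of 8 neutrophil and monocyte markers in the same libraries, red for isoflurane and blue for Propofol. Libraries 3, 4 and 10 have the lowest member means and the highest marker levels of their groups.

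Members of both subunits fell. Under isoflurane 30 of 39 large subunit genes tested were lower (76.9%, median log2 fold change -0.39) and 12 of 27 small subunit genes (44.4%, median -0.27). Under Propofol it was 15 of 39 (38.5%, median -0.17) and 9 of 27 (33.3%, median -0.15). Of all genes tested, 24.4% were called lower under isoflurane and 21.7% under Propofol. The mean change per library was -0.39 ± 0.17 for the large and -0.33 ± 0.20 for the small subunit under isoflurane (SD, n = 4), and -0.19 ± 0.14 and -0.15 ± 0.13 under Propofol. Large minus small, in mean log2 CPM per library, was -0.29 ± 0.039 in Isoflurane-Sepsis (range -0.342 to -0.255) and -0.22 ± 0.021 in Isoflurane-Control (range -0.239 to -0.193), with no overlap. It was -0.22 ± 0.022 in Propofol-Sepsis and -0.18 ± 0.019 in Propofol-Control, whose ranges overlapped. With the subunit taken from structures, neither pair overlapped (-0.357 to -0.273 with sepsis against -0.265 to -0.216 under isoflurane, and -0.271 to -0.221 against -0.219 to -0.182 under Propofol). Between the group means, the balance moved by -0.06 under isoflurane and -0.04 under Propofol, and the use of summed CPM made these -0.02 and 0.02, so that the direction under Propofol turned and the ranges overlapped under both anesthetics. The summed CPM of the large subunit genes was 666.7 to 841.6 in Isoflurane-Sepsis, 919.3 to 947.3 in Isoflurane-Control, 795.7 to 999.8 in Propofol-Sepsis and 995.4 to 1038 in Propofol-Control. That of the small subunit genes was 505.9 to 638.1, 696.4 to 713.9, 602.8 to 750.9 and 752.9 to 789.7 in the same order.

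By descent, large subunit genes with a bacterial counterpart were lower under isoflurane in 19 of 22 (86.4%, median -0.43). Those without were lower in 10 of 16 (62.5%, median -0.34). In the small subunit it was 7 of 17 (41.2%, median -0.23) and 4 of 9 (44.4%, median -0.27). Of all genes, 24.4% were lower. Under Propofol the counts were 9 of 22 (40.9%), 5 of 16 (31.2%), 5 of 17 (29.4%) and 4 of 9 (44.4%), against 21.7% of all genes. The L7/L12 stalk, to which translation factors bind, is built on Mrpl10 with Mrpl12, and both genes fell under both anesthetics. At the exit of the peptide tunnel, Mrpl22, Mrpl23 and Mrpl44 fell under isoflurane and Mrpl23 and Mrpl44 under Propofol, while Mrpl45 was at 0.001 and -0.004.

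Subunits whose symbols fall outside the rule were counted apart. Among 4 symbols spelled differently in the files, mrpl11, the third stalk protein, fell under isoflurane (log2 fold change -0.71, adjusted p of 0.00901 by edgeR) and mrpl9 under Propofol (-0.28, adjusted p of 0.014), while mrpl24 and Mrp63 were not called. This was 25% lower in each comparison, near the 24.4% of all genes under isoflurane and the 21.7% under Propofol. Of 6 subunits with other names (Dap3, Ptcd3, Aurkaip1, Chchd1, Gadd45gip1 and Ict1), only Gadd45gip1, a large subunit protein, was called under isoflurane. It fell by 0.55 on the log2 scale (adjusted p of 0.000442 by edgeR), which made 16.7% lower, below the 24.4% of all genes. Under Propofol 0 were called, against 21.7% of all genes called lower. There Gadd45gip1 (-0.33) and Aurkaip1 (0.19) had an unadjusted p below 0.05 with opposite signs.

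Genes that work beside the mitochondrial ribosome were counted from other lists. Of 13 translation factors tested, 8 fell under isoflurane (61.5%, against 24.4% of all genes). In order of log2 fold change they were Taco1, an activator of the translation of cytochrome c oxidase subunit I (-1.12), Guf1 (-0.95), Mtfmt, which formylates the initiator methionyl-tRNA (-0.81), Gfm2 (-0.73), Lrpprc (-0.51), Mtif2 (-0.41), Gfm1, the main elongation factor G of mitochondria (-0.39), and Mrrf (-0.25). Under Propofol 5 fell (38.5%, against 21.7%), Mtfmt (-0.69), Lrpprc (-0.46), Guf1 (-0.41), Mtrf1l (-0.34) and Oxa1l (-0.23). The medians were -0.39 and -0.23. Tufm, the elongation factor Tu, was at -0.04 and -0.05 and was not called.

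Of 20 assembly factors and rRNA modifiers tested, 12 fell (60%, against 24.4% of all genes) and 1 rose under isoflurane (median -0.33). The falls with the smallest adjusted p were those of Rbfa (-0.90), Ddx28 (-0.87), Ftsj2 (-0.81), Eral1, the chaperone of the small ribosomal RNA (-0.42), Gtpbp10 (-0.71), Malsu1 (-0.37), Dhx30 (-0.25), Mpv17l2 (-0.40), Fastkd2 (-0.36) and Mterfd2 (-0.30). The GTPase gene Noa1 was the rise (0.27), a call lost with library totals alone, where 13 fell and 0 rose. Under Propofol 8 fell (40%, against 21.7%, median -0.18), Ddx28 (-0.74), Gtpbp10 (-0.61), Malsu1 (-0.52), Rbfa (-0.37), Mterfd2 (-0.24), Eral1 (-0.30), Gtpbp5 (-0.19) and Dhx30 (-0.20). Of 4 genes for transcription of mitochondrial DNA, Polrmt, the polymerase, fell under both anesthetics (-0.32 and -0.49), Tefm under isoflurane (-0.28) and Tfam under Propofol (-0.19). Under isoflurane 2 of the 4 were below 0 and 2 above, with a median of -0.13, and under Propofol the median was -0.27.

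The cytosolic ribosome did not share the fall. Of 71 cytosolic ribosomal protein genes tested under isoflurane (of 80 listed), 0 fell and 39 rose (54.9%, against 25.7% of all genes), with a median log2 fold change of 0.20, and of 72 under Propofol 0 fell and 3 rose (4.17%, below the 20.4% of all genes, median 0.07). With library totals alone 12 rose under isoflurane (16.9%, below the 21.6% of all genes, median 0.14). Under Propofol 2 then rose (2.78%, below 16.2%) and 1 fell (median 0.02), and the median of all genes was then -0.06 in each comparison. Members of that family have many processed copies in the genome, and 23 members of the mitochondrial family have 40 pseudogenes named after them in the reference annotation, so that reads shared with copies are uncertain.

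**Figure D5:**
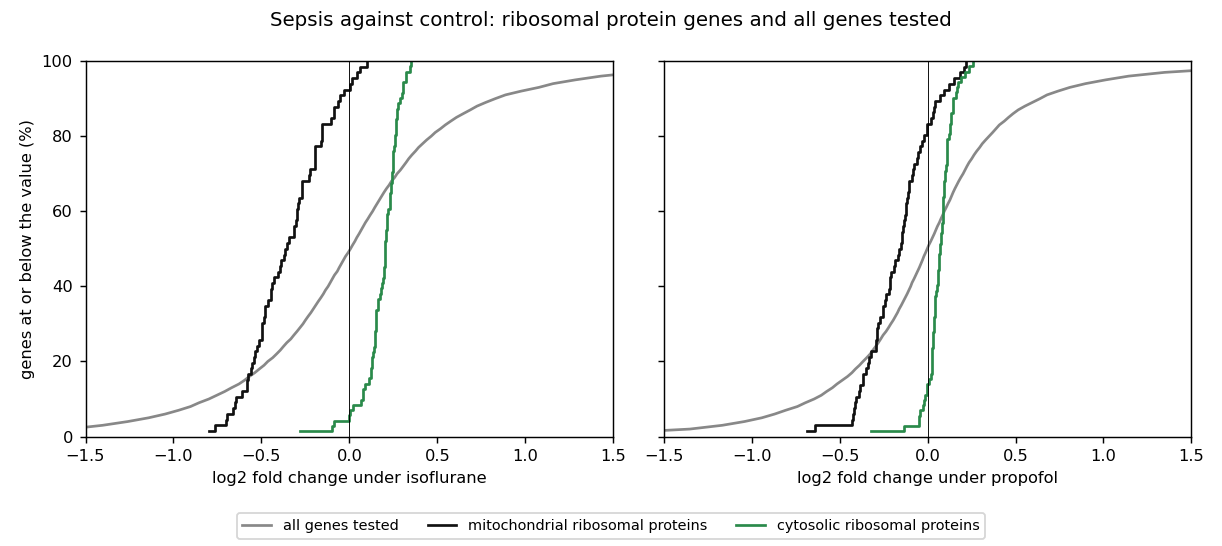
Share of genes (y axis, %) with a log2 fold change of sepsis against control at or below the value on the x axis, under isoflurane on the left and Propofol on the right. The 66 mitochondrial ribosomal protein genes (black, medians -0.36 and -0.16) lie left of all genes tested (grey), and cytosolic ribosomal protein genes (green, medians 0.20 and 0.07) right of the middle of all genes.

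The groups of the 2 anesthetics were also compared directly. These comparisons share libraries with those above, and they compare induction drugs, and any batch that followed the anesthetic, together with anesthetics. In controls, 22 of the 66 members were lower with isoflurane and 3 were higher (33.3% and 4.55%, where 21.7% of the 10314 genes tested were lower and 21.6% higher), with a median log2 difference of -0.08. There 30 members had an unadjusted p below 0.05 by edgeR (45.5%, below the 51.4% of all genes in either direction). TMM factors were 0.961 to 0.979 in Isoflurane-Control and 1.067 to 1.094 in Propofol-Control, and with library totals alone 42 were lower and 0 higher at a median of -0.22, when the median of all genes was -0.15 and 37.1% of them were lower. The members higher with isoflurane in controls were Mrps28 (0.33), Mrps12 (0.24) and Mrpl54 (0.19). Among those lower, the largest differences were Mrpl49 (-0.71), Mrps2 (-0.57), Mrps30 (-0.56) and Mrps26 (-0.44).

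In septic liver, 15 members were lower with isoflurane and 0 higher (22.7% lower, where 8.66% of the 10272 genes tested were lower and 10.6% higher), and the median difference was -0.30. An unadjusted p below 0.05 was reached by 34 members (51.5%, against 39.1% of all genes), and DESeq2 called 25 lower and 1 higher (Mrpl54). With library totals alone 36 were lower at a median of -0.45, when the median of all genes was -0.16 and 21.2% of them were lower. Mrpl49 led with -1.31 ± 0.16 (adjusted p of 0.00464 by edgeR) and was followed by Mrps30 (-0.63), Mrpl19 (-0.57) and Mrpl38 (-0.50). The count of 15 varied with the library left out. It was 1, Mrpl49 alone, without library 9, 11 or 12, it was 7, 4 and 8 without libraries 2, 3 and 4, and it was 27 and 23 without libraries 1 and 10. The share of all genes called was not counted in these fits or with DESeq2 for this comparison. A change of calls over all genes therefore cannot be told apart from one in the members.

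Across the 4 groups the mean log2 CPM of the members was 4.04 ± 0.18 in Isoflurane-Sepsis, 4.34 ± 0.14 in Propofol-Sepsis, 4.41 ± 0.014 in Isoflurane-Control and 4.51 ± 0.038 in Propofol-Control (SD, n = 4). Their share of reads on genes had the ranges 0.1091% to 0.1367%, 0.1444% to 0.1793%, 0.1564% to 0.1616% and 0.1893% to 0.1949% in that order. Propofol-Control was above all other libraries in both measures. Isoflurane-Sepsis was below all others in the share of reads, and in mean log2 CPM it overlapped Propofol-Sepsis through library 10 (4.14).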

How the data were processed

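The authors deposited, for each of 16 libraries, raw counts, that is whole numbers of poly(A)-selected, stranded, single-end reads on 17055 gene symbols. The submitters' processing notes name STAR and the rat build rn5. For the counting program and its annotation, no name is given in the sources used here. In each library 2 entries that name no gene (reads outside genes, 21.61% to 25.39%, and ambiguous reads, 1.074% to 1.351%) were left out of library sizes. The study's methods name DESeq2.

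Counts of all genes were tested here in edgeR 4.0.16 by its quasi-likelihood method (limma 3.58.1, R 4.3.3), with TMM scaling and filterByExpr (minimum count 10, minimum total 15). Each sepsis comparison and each comparison between anesthetics was fitted on its own 8 libraries, and the interaction on all 16. Benjamini-Hochberg adjustment covered every gene tested, and an adjusted p below 0.05 was a call. Log2 CPM used a prior count of 2. Alternatives were RLE factors, library totals alone, DESeq2 1.42.0, other limits on low counts, thinned counts, 1 fit of all libraries, leaving out each library, and a stricter threshold of 0.01. Scripts were tested on simulated data.

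The members and the lists were chosen with earlier results of these data known. Named are all members called in a sepsis comparison, those with extreme values or smallest adjusted p, those not tested, those whose letter and subunit differ, and called genes of the other lists (at most 10). The cytosolic list and members named for other reasons were chosen after their values were seen. Of the members, 67 matched the RefSeq table of GRCr8 and 54 had a promoter there. Protein sequences and gene lengths were not used here, so levels are not compared between genes.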

Additional observations from a re-analysis of the deposited data

Results flagged for a closer look

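For 11 members shown by library and for the member means, groups of 4 libraries were searched for a library far from the other 3, which flagged 6 of 60 groups, where chance flags about 1 in 20. Mrpl37 and Mrpl51 were low in Isoflurane-Sepsis library 3, at 24.97 and 16.52 CPM. In Propofol-Control, Mrpl15 was low in library 13 at 24.97 CPM, Mrps16 was low in library 15 at 22.19 CPM, and Mrps2 was high in library 15 at 71.51 CPM. The mean log2 shift of the small subunit genes in Isoflurane-Control library 5 was 0.019, above the other 3 controls. No member had a called difference between the anesthetics in its response to sepsis by edgeR.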

How the results depend on the processing

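No paired analysis was possible because the groups share no replicate number, the labels numbering the libraries from 1 to 16. In each sepsis comparison the median over members stayed below 0 under every alternative run. Of the calls, 19 of 42 under isoflurane and 6 of 24 under Propofol held under every alternative, the adjusted p below 0.01 included, at which 19 members (28.8%, against 14.8% of all genes) and 6 (9.09%, below the 13.3% of all genes) were lower. DESeq2 called 2 members lower in the interaction. Without libraries 3 and 4, an alternative chosen after seeing the data, 1 member rose under isoflurane. The alternatives for the comparisons between anesthetics were also chosen after seeing the data. In controls, library totals alone gave 42 lower and 0 higher (medians -0.22 over all members, -0.22 over large and -0.22 over small subunit genes), 1 fit of all libraries 14 and 1, and the stricter threshold 14 and 0. In sepsis, library totals gave 36 lower, DESeq2 25 lower and 1 higher, no limit on low counts 9 lower, 1 fit of all libraries 33 lower and 1 higher, and the stricter threshold 1 lower. Of all genes, library totals gave 37.1% lower in controls and 21.2% in sepsis. For the other settings named here the share of all genes was not counted in these comparisons. With summed CPM, large against small moved by -0.024 under isoflurane and 0.023 under Propofol.

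With each library left out in turn, counts of lower members ran from 31 to 45 under isoflurane, 12 to 24 under Propofol, 0 to 7 in the interaction, 18 to 23 between controls and 1 to 27 between sepsis groups. Counts of higher members ran from 0 to 0, 0 to 2, 0 to 0, 2 to 4 and 0 to 0 in the same order. In the same fits, 19.2% to 26% of all genes were called lower under isoflurane and 17.3% to 21.3% under Propofol. The isoflurane count of 31, without library 5 or 7, went with 20.2% and 19.3% of all genes, below the 24.4% with every library. This share was not counted for the interaction or for the comparisons between anesthetics. Medians over all members ran from -0.44 to -0.29 under isoflurane (large -0.45 to -0.34, small -0.32 to -0.23), from -0.20 to -0.07 under Propofol (large -0.20 to -0.06, small -0.21 to -0.07) and from -0.28 to -0.15 in the interaction (large -0.28 to -0.16, small -0.25 to -0.11). They ran from -0.11 to -0.06 between controls (large -0.117 to -0.061, small -0.098 to -0.028) and from -0.37 to -0.24 between sepsis groups (large -0.41 to -0.28, small -0.34 to -0.18).

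No called member changed sign in either sepsis comparison, while 10 uncalled members did under isoflurane and 12 under Propofol in at least 1 alternative. Those 12 include 5 that were called under isoflurane. With a library left out, Mrpl21 ran from -0.129 to 0.013 (0.002 without library 10, 0.013 without library 16), and Mrpl27 from -0.08 to 0.021. Mrpl38 ran from -0.101 to 0.005 (the highest without library 10). Mrpl34 was at 0.006 with thinned counts, 0.029 without library 10, 0.015 without library 11 and 0.074 without library 16. Mrps31 was at -0.024 with library totals and from -0.018 to 0.06 with a library left out (the lowest without library 11). The cause was not tested. Depth limits Mrpl1 (9 to 52 reads per library), and 4 pools per group limit all calls.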
